A study of Mus musculus with 2 samples.

Results

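Cytosolic ribosomal protein genes encode the protein part of the ribosome that translates nuclear messages. They were taken by name as the protein coding mouse genes whose symbols start with Rpl or Rps followed by a digit, a or p. Of 102 such genes, 16 with names of the Rps6k kinases or with the ending -ps were left out, and 86 of the 42462 genes with a symbol remained. These 86 were 46 canonical genes of the large subunit, 31 canonical genes of the small subunit, 7 paralogs, the retrogene copy Rps27rt, and Rps19bp1. Rps19bp1 shares the name but encodes a protein that binds RPS19 and is no ribosomal protein. Total RNA longer than 200 nt had been sequenced from embryonic facial prominences of B6NCrl mice at embryonic day 10.5, male and female embryos pooled, with 10 ng of RNA per library and spike-in controls added. Replicate 1 was a pool of 69 embryos and replicate 2 a pool of 51. There was 1 group and no treatment or control, so no test between conditions was possible, and 2 values against 2 could not give a permutation p below 0.33. Expected counts over genes summed to 40059176 (replicate 1) and 39531700 (replicate 2). Values are given as mean ± SD with n = 2 pools.

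A ribosome holds 1 copy of nearly every ribosomal protein, so the genes are usually described as a set made in balanced amounts. The small subunit reads the message and the large subunit joins the amino acids and releases the chain through an exit tunnel. Messages of ribosomal proteins are known in vertebrates for a short run of pyrimidines at the cap, through which their translation answers to growth signals. Mutations in several of these genes cause Diamond-Blackfan anemia in humans, and craniofacial malformations are among its features. A few ribosomal proteins have a second gene, a paralog, some of which are known for use in striated muscle or testis, and mammalian genomes carry many processed pseudogenes of the family.

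The tissue label was checked against marker genes. All 7 mesenchyme markers of the face reached 1 TPM in both libraries, with Msx1 at 281 TPM in replicate 1 and 303 TPM in replicate 2. Neuronal, ectodermal and endothelial markers were also present (3 of 3, 5 of 5 and 4 of 4), and the 4 markers of red cells summed to 8215 TPM in replicate 1 and 7077 TPM in replicate 2. In a tissue sample of this kind, fewer cells of a type and less RNA per cell cannot be told apart.

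All 77 canonical genes were expressed, the middle part of the set between 484 and 1004 TPM (a level per length of transcript, scaled to the same total in each library). Their median level was 798 TPM in replicate 1 and 792 TPM in replicate 2. Of the 86 genes, 83 (96.5%) reached 1 TPM in both libraries, against 58.2% of the 21474 protein coding genes with a symbol. By mean TPM, 27 canonical genes were among the 100 most abundant protein coding genes and 69 were among the 500 most abundant. The canonical genes held 6.21% of all TPM in replicate 1 and 6.25% in replicate 2. By counts, which are not per length, the 86 genes held 2.58% (95% Clopper-Pearson interval 2.58 to 2.59%) in replicate 1 and 2.62% (2.62 to 2.63%) in replicate 2. These intervals cover counting error only.

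**Figure D1:**
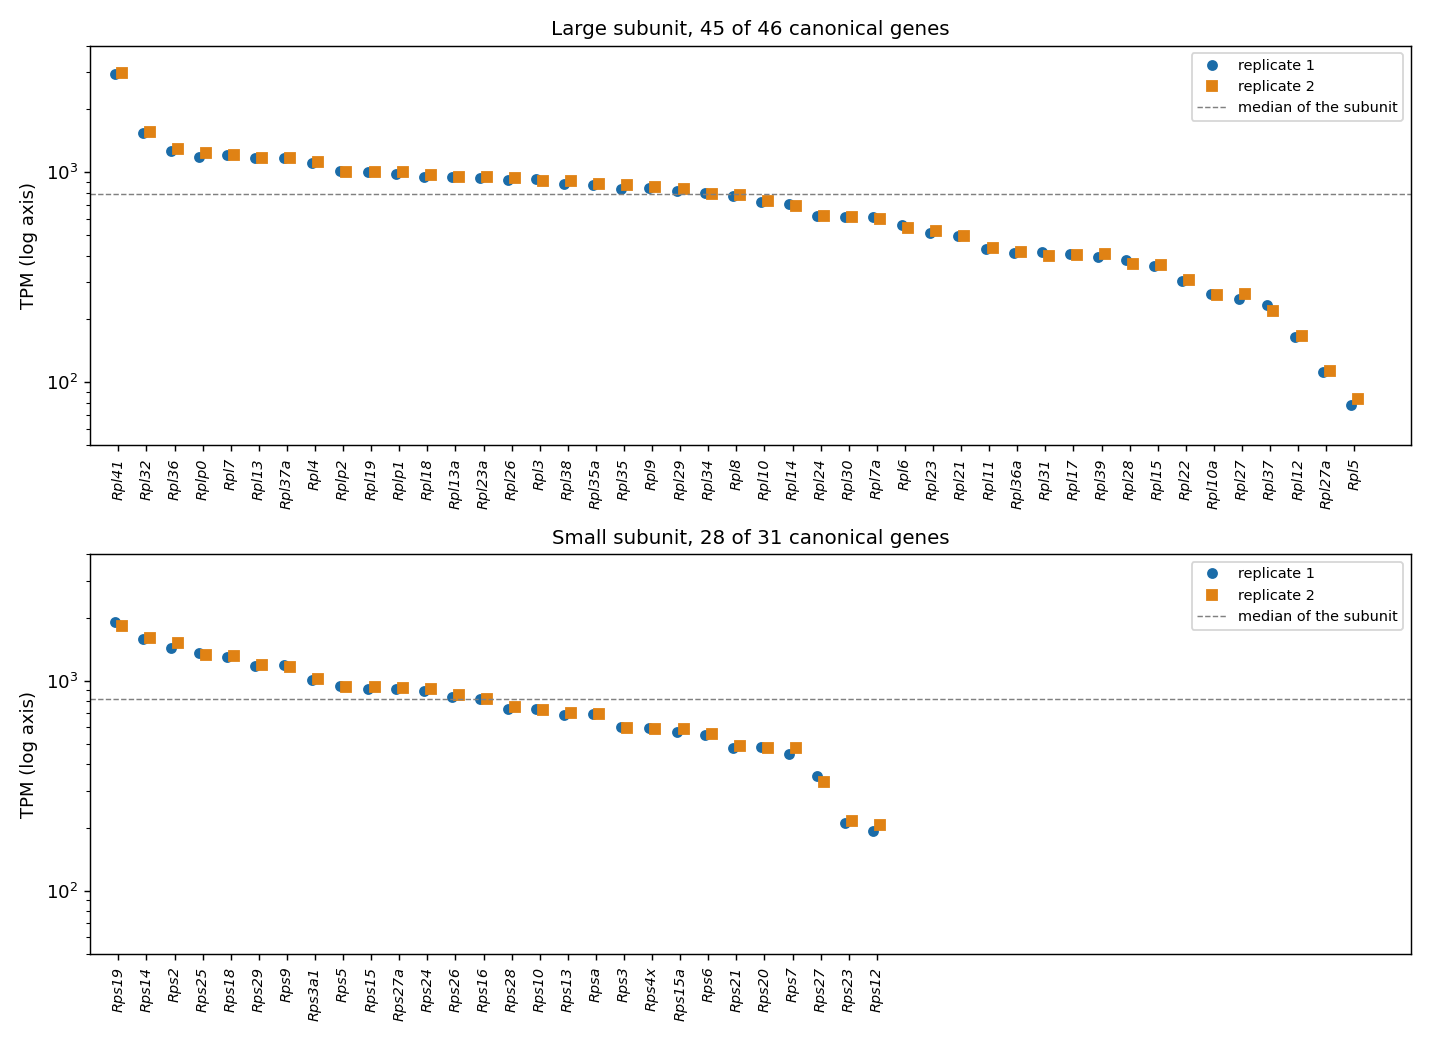
Levels in TPM on a log axis, ordered by mean level, of 45 of the 46 canonical genes of the large subunit (upper panel) and 28 of the 31 of the small subunit (lower panel). Circles are replicate 1, squares replicate 2, and the dashed line is the median over the whole subunit. The 2 replicates nearly coincide for every gene shown, while genes range from 80.6 to 2965 TPM.

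The large subunit and the small subunit had similar median levels. The median over the 46 large subunit genes was 782 TPM in replicate 1 and 787 TPM in replicate 2, against 816 and 824 TPM over the 31 small subunit genes. The ratio of the medians, large over small, was 0.96 in each replicate (0.957 ± 0.00217, SD, n = 2). The ratio of the mean levels was lower, at 0.868 in replicate 1 and 0.867 in replicate 2. Levels within the large subunit were spread more widely, with an SD of 1.00 on the log2 scale over genes, against 0.78 in the small subunit, but with the reads of near-identical copies added the values were 0.66 and 0.60.

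The highest level in the large subunit was that of Rpl41, which encodes a very short, basic peptide (ENSMUSG00000093674, chromosome 10, 128548114 to 128549305 on GRCm38). It stood at 2952 TPM in replicate 1 and 2978 TPM in replicate 2. Rpl32, the next, had 1540 and 1558 TPM in replicates 1 and 2, so Rpl41 stood well apart from the rest of its subunit. The following genes formed a gradual slope rather than a group of their own. Rpl36 had 1259 and 1289 TPM. Rplp0, the base of the P stalk, had 1185 and 1236 TPM. Rpl7 had 1214 and 1207 TPM. Rplp0 and Rpl7 did not differ beyond their replicate spread. Rpl13 stood at 1170 and 1169 TPM, Rpl37a at 1164 and 1167 TPM, and Rpl4, part of the wall of the exit tunnel, at 1112 and 1126 TPM. Rplp2 of the P stalk and Rpl19, near the tunnel exit, closed the 10 highest at 1010 ± 6.05 and 1004 ± 0.778 TPM.

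In the small subunit the highest level was that of Rps19, the gene first linked to Diamond-Blackfan anemia (ENSMUSG00000040952, chromosome 7, 24884371 to 24889806). It had 1899 TPM in replicate 1 and 1834 TPM in replicate 2. Rps14 had 1580 TPM in replicate 1 and 1603 TPM in replicate 2, so it was below Rps19 in both libraries. Rps2, near the entry of the message channel, had 1431 and 1521 TPM, a wider gap between the libraries than in Rps19 or Rps14. Rps25 had 1352 and 1335 TPM, and Rps18, a protein of the subunit's head, had 1304 and 1312 TPM. Rps29 (1184 ± 10.7 TPM) and Rps9 (1177 ± 18.5 TPM) did not differ beyond the replicate spread. Rps3a1, of the platform of the subunit, averaged 1015 ± 4.67 TPM.

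At the low end of the large subunit stood Rpl5, which carries 5S ribosomal RNA into the subunit (ENSMUSG00000058558, chromosome 5, 107900502 to 107909005). It had 77.8 TPM in replicate 1 and 83.4 TPM in replicate 2. Rpl27a had 112 and 113 TPM, and Rpl12, which binds at the base of the stalk, had 165 and 166 TPM. Rpl37 (226 ± 10.6 TPM) and Rpl27 (256 ± 9.72 TPM) followed. In the small subunit the lowest were Rps12 (194 TPM in replicate 1 and 206 TPM in replicate 2), Rps23 of the decoding centre (211 and 216 TPM) and Rps27 (352 and 331 TPM). Rps7 (463 ± 22.0 TPM) and Rps20 (479 ± 4.06 TPM) were next. Between Rpl5 and Rpl41 the range was 36.8-fold.

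Most genes at the low end had near-identical copies elsewhere in the genome that received reads. Transcripts of other genes that matched a canonical or paralogous transcript over at least 200 bases at 95% identity or more came from 461 genes in the tables, of which 435 were processed pseudogenes, 14 transcribed processed pseudogenes, 11 protein coding by annotation and 1 a long noncoding RNA. Rps27rt is a member and was not counted as a copy. These copies held 170779 counts in replicate 1 and 171172 in replicate 2, or 0.426% and 0.433% of gene counts. The 30 copies averaging 1000 counts or more held 92.4% of them, and 72 copies had no count in either library. Among the 15 canonical genes of lowest level, 11 had at least 25% of the counts of gene and copies in the copies, and 19 of all 77 canonical genes did. This share is not independent of the level, since a lower count of the gene raises it. Whether such reads came from the copy or from the gene cannot be told apart here.

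Rpl5 shows the pattern at its strongest. Its copy Gm15500 (chr7:114705217-114706235) was identical over 1018 bases and held the whole coding sequence of 891 bases unchanged. Gm15500 had 814 TPM in replicate 1 and 857 TPM in replicate 2, so 88.4% of the counts of Rpl5 and its 5 copies lay in the copies. The first 60 coding bases, from the coding region at chr5:107900644-107907993 (plus strand, GENCODE M21 on GRCm38), are shown because they are the same letters in gene and copy.
Rpl5 and Gm15500: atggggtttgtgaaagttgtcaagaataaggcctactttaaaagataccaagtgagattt
With copies added, Rpl5 came to 917 TPM on average, within the range of the other large subunit genes.

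The same held for other genes of low level. Copies took 74.4% of the counts of Rps23 and its copies, mainly in Rps23-ps1, which had 1235 TPM in replicate 1 and 1247 TPM in replicate 2 and was identical to Rps23 over its full 425 bases. For Rpl27 the share was 72.9%, for Rpl27a 62.8%, for Rps12 61.9%, for Rpl15 59.6%, for Rpl12 59.3% and for Rpl28 50.5%. These 8 genes, Rpl5 and Rps23 included, had more than 50% of their counts in copies. Copies also took part in families of high level, such as Rpl13 (38.2%, mainly Gm12918 at 923 ± 2.54 TPM). At the other end, 29 canonical genes had under 1% of their counts in copies, among them Rpl32, Rps25, Rplp0 and Rpl4.

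Adding the copies narrowed the range of the set. The SD of the log2 level over the 77 canonical genes was 0.63 with copies and 0.92 without, and the range was 10.5-fold with copies and 36.8-fold without. The lowest gene with copies was Rpl22, at 304 TPM. The median rose to 950 TPM. Large over small, the ratio of the mean levels was 0.868 without copies and 0.989 with them. The ratio of the medians was 0.957 without copies and 0.973 with them. Of the 19 genes with at least 25% in copies, 14 belonged to the large subunit, as did 46 of all 77 canonical genes. The sum was chosen after the levels had been seen, and copies that are shorter than the gene add more TPM per read than the gene does.

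**Figure D2:**
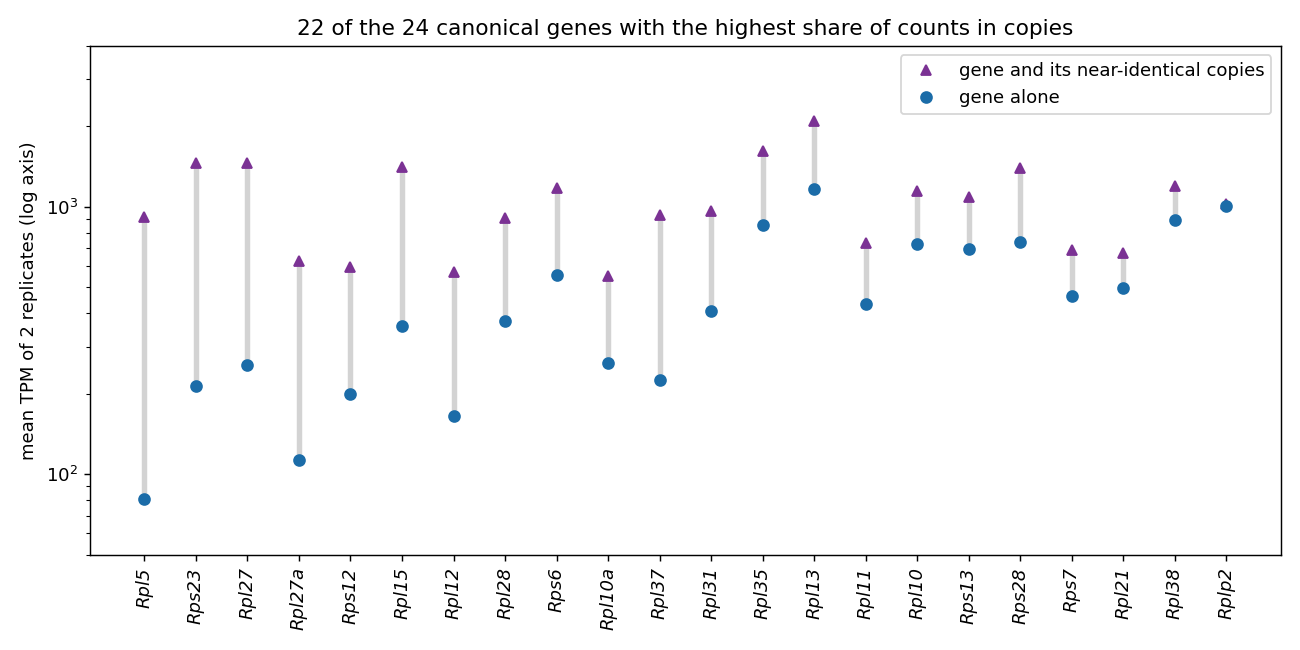
Mean TPM over 2 replicates (log axis) of 22 of the 24 canonical genes with the highest share of counts in near-identical copies, for the gene alone (circles) and for the gene with its copies (triangles), ordered from the highest share on the left. Rpl5 lies at 80.6 TPM alone and at 917 TPM with its copies, and the triangles span a smaller range than the circles.

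By role in the ribosome, the P stalk, which recruits the factors of elongation, had 3 genes at nearly one level. Rplp0 averaged 1211 ± 36.3 TPM, Rplp2 1010 ± 6.05 TPM and Rplp1 991 ± 15.6 TPM. The 5S particle was uneven: Rpl5 averaged 80.6 ± 3.93 TPM and Rpl11 432 ± 3.09 TPM. With copies these came to 917 ± 34.8 TPM for Rpl5 and 736 ± 2.09 TPM for Rpl11, whose copies took 33.6% of the counts. The 8 genes of the exit tunnel and its rim ranged from Rpl39 at 402 ± 7.98 TPM to Rpl4 at 1119 ± 9.92 TPM. Between them lay Rpl17 (406 ± 3.61 TPM), Rpl31 (409 ± 10.1 TPM), Rpl35 (855 ± 26.8 TPM), Rpl26 (929 ± 18.9 TPM), Rpl23a (944 ± 5.42 TPM) and Rpl19. The median of these 8 was 892 TPM, against 795 TPM for all canonical genes.

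The 18 genes linked in humans to Diamond-Blackfan anemia had levels like those of the set as a whole. Their median was 793 TPM, against 795 TPM over all 77 canonical genes, and their range ran from Rpl5 to Rps19. Rps29 (1184 ± 10.7 TPM) and Rps19 exceeded 1000 TPM. Rpl26, Rps24 (906 ± 18.5 TPM), Rpl18 (963 ± 12.5 TPM), Rpl35a (872 ± 9.72 TPM), Rpl35 and Rps26 (837 TPM in replicate 1 and 854 TPM in replicate 2) lay between the median of the set and 1000 TPM. Rps28 had 741 ± 13.7 TPM and Rps10 731 ± 1.56 TPM. Lower levels were those of Rps7, Rpl11, Rpl31, Rpl15 (359 ± 3.39 TPM), Rps27, Rpl27 and Rpl5, and each of them except Rps27 and Rps7 had at least 25% of its counts in copies. Rpl10 (726 ± 6.84 TPM), Rps4x (593 ± 6.59 TPM), Rpl36a (415 ± 2.68 TPM) and Rpl39, also canonical genes, lie on the X chromosome.

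Ribosomal proteins whose symbols fall outside the name rule had levels within the same range. Fau, a fusion of a ubiquitin-like domain with a small subunit protein, had 548 TPM in replicate 1 and 586 TPM in replicate 2. Rps27a, a member that is itself a fusion with ubiquitin, had 911 and 919 TPM. Rack1, a scaffold on the small subunit, had 717 and 706 TPM.

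Levels of the paralogs ran from above the canonical gene (Rpl36al, Rps27l) over close to it (Rpl22l1) and well below it (Rpl7l1) to nearly without reads (Rpl3l, Rpl10l and Rpl39l). Differences are given as canonical over paralog on the log2(TPM + 0.1) scale, with an interval of 1.96 standard errors from the replicate spread of the 200 genes nearest in level. That spread leaves out errors of length or read assignment particular to a gene.

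Rpl22 and its paralog Rpl22l1, which RPL22 is known to repress in mouse, had almost equal levels per length of transcript. Rpl22 had 303 TPM in replicate 1 and 305 TPM in replicate 2, against 269 and 273 TPM for Rpl22l1. The difference was 0.17 (0.04 to 0.29), or 1.12-fold. With a single library the interval included 0. By counts scaled to the library total and not per length the difference was 0.62. Rpl36al, a paralog on chromosome 12 of the X-linked Rpl36a, with a coding region not broken by introns, was the higher of its pair. Rpl36a had 413 TPM in replicate 1 and 416 TPM in replicate 2, against 490 and 519 TPM for Rpl36al, a difference of -0.28 (-0.39 to -0.17). The coding sequences differ at 39 of 318 bases, an identity of 87.7%. Their first 75 coding bases are shown because reads of the 2 genes can be told apart by them, with capitals marking the bases of Rpl36al that differ from Rpl36a. The coding regions lie at chrX:134585717-134587954 (plus strand) and chr12:69182819-69183136 (minus strand).
Rpl36a: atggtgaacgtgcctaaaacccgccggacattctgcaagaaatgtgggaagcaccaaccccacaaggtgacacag
Rpl36al: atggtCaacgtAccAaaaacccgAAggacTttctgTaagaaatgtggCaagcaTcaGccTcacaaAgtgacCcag

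Rps27l, a paralog known as a target of the tumour suppressor p53, was also above its canonical gene. Rps27 had 352 TPM in replicate 1 and 331 TPM in replicate 2, against 656 and 673 TPM for Rps27l, a difference of -0.96 (-1.08 to -0.85), or -2.32 by counts scaled to the library total and not per length. The order within this pair depends on how another gene is counted. Rps27rt, a retrogene on chromosome 9, has a coding sequence of 252 bases that is identical to that of Rps27 at every base, whereas Rps27l differs at 60 of them. Rps27rt had 848 TPM in replicate 1 and 811 TPM in replicate 2, and the difference, Rps27 over Rps27rt, was -1.28 (-1.40 to -1.16), or -2.07 when not per length. That pair was added after its levels had been seen. The deposited files list Rps27 with a transcript of 255 bases, where GENCODE M21 gives 345, and Rps27rt with 370 bases. The posterior SD of the count was 92.2 for both genes in replicate 1 and 90.7 for both in replicate 2, which amounts to 6.48% of the count of Rps27, the largest share of any canonical gene. Taken as a sum, Rps27 and Rps27rt had 1201 TPM in replicate 1 and 1141 TPM in replicate 2. That is 1.83 and 1.69 times the level of Rps27l, so the order turned when the whole level of Rps27rt was added to Rps27. Whether reads given to Rps27rt came from Rps27 was not tested. The first 75 coding bases are shown with capitals for bases that differ from Rps27. The coding regions are at chr3:90212728-90213615 (minus strand) for Rps27, chr9:114982456-114982707 (minus strand) for Rps27rt and chr9:66946175-66949354 (plus strand) for Rps27l.
Rps27: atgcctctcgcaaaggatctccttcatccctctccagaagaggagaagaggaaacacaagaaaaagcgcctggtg
Rps27rt: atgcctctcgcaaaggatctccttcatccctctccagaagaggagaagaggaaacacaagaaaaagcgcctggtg
Rps27l: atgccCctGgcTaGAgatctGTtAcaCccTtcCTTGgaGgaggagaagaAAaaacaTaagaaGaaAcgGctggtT

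Rpl7l1, whose product is known in human cells as a factor of large subunit assembly, was lower than its counterpart. Rpl7 had 1214 TPM in replicate 1 and 1207 TPM in replicate 2, against 174 and 180 TPM for Rpl7l1. The difference was 2.77 (2.62 to 2.93), or 6.84-fold. By counts scaled to the library total and not per length it was 0.89. The leading transcript had 838 bases in Rpl7 and 2606 in Rpl7l1. The X-linked Rps4x had 597 TPM in replicate 1 and 588 TPM in replicate 2, against 184 and 177 TPM for Rps4l, a transcribed processed pseudogene by annotation and so outside the name rule. That difference was 1.71 (1.57 to 1.86).

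The paralogs known for striated muscle or testis were almost without reads. Rpl3l, the muscle counterpart of Rpl3, received 2 counts in replicate 1 and 1 in replicate 2. Per length, Rpl3 was 15175 times as abundant, with a counting interval of 5192 to 73582 on 3 counts in all. With so few counts the log2 difference depends on the scale, at 12.50 (11.55 to 13.46) for log2(TPM + 0.1) and 11.58 from posterior mean TPM. With a pseudocount of 1 or 0.01 TPM in place of 0.1 it was 9.77 or 13.75, both outside that interval. The Rpl3l gene lies 5890 bases from the end of Rps2, a gene at 1476 TPM. Rpl10l, an intronless testis counterpart of Rpl10, received 1 count in replicate 1 and 0 in replicate 2, and the ratio of Rpl10 to it was 35476 (6367 to 1401210), a range that 1 count leaves wide. Its log2 difference was 12.58 (12.10 to 13.07), or 12.13 from posterior mean TPM. With a pseudocount of 1 or 0.01 TPM it was 9.48 or 14.99, so the interval does not cover the choice of pseudocount. Rpl39l, a testis counterpart of Rpl39, received 2 and 3 counts, and the ratio was 1915 (821 to 5897). That log2 difference was 10.35 (9.20 to 11.51), or 9.89 from posterior mean TPM, and 8.38 or 10.86 with a pseudocount of 1 or 0.01 TPM. Of 9 markers of skeletal and heart muscle only Actc1 reached a TPM of 1 in both libraries, and none of 6 germ cell markers did, with Tnp1 and Prm2 listed at 0. Their part in the low counts of these paralogs was not tested. The coding sequences of Rpl39 and Rpl39l differ at 23 of 153 bases (85.0% identity), and the first 75 bases are shown with capitals for the bases of Rpl39l that differ. The regions are chrX:37082704-37085127 (minus strand) and chr16:10174310-10174462 (plus strand).
Rpl39: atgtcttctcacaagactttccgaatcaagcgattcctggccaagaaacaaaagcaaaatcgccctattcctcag
Rpl39l: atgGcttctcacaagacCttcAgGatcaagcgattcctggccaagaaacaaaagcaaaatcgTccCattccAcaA

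**Figure D3:**
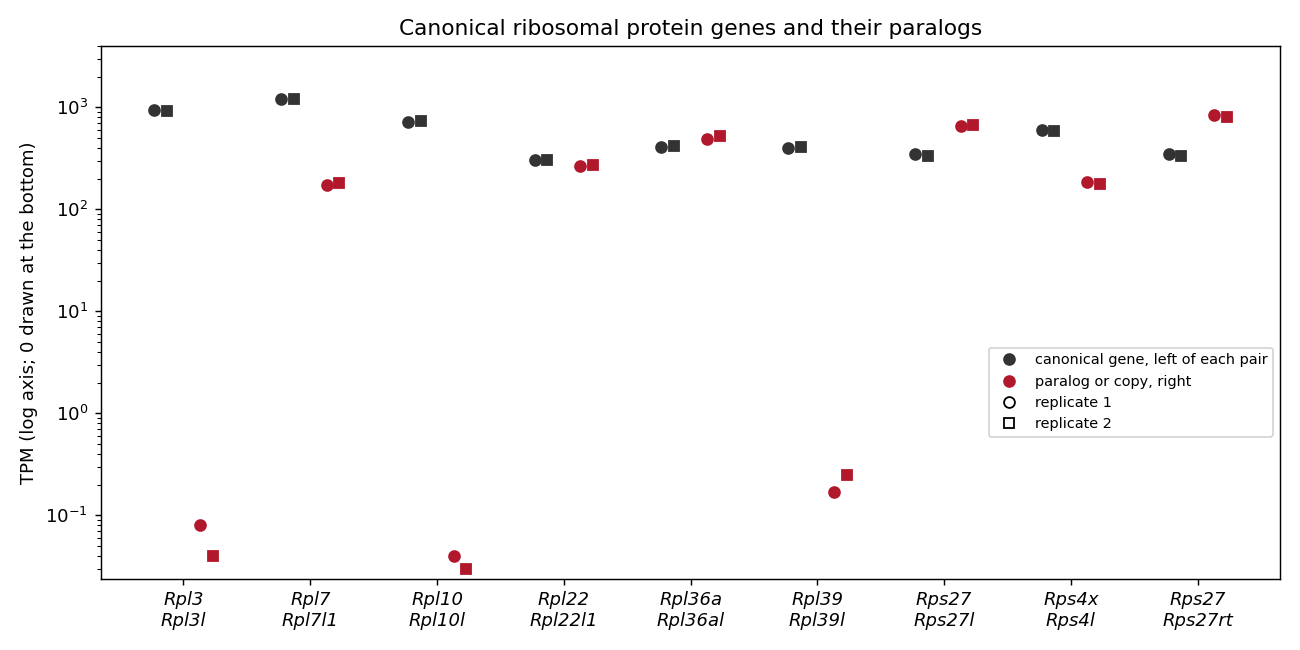
TPM (log axis) of each canonical gene (left symbols, dark) and its paralog or copy (right symbols, red) in replicate 1 (circles) and replicate 2 (squares). Rpl3l, Rpl10l and Rpl39l lie below 1 TPM, while Rpl36al, Rps27l and Rps27rt lie above their canonical genes.

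The 2 pools differed little in these genes. The log2 ratio of replicate 1 over replicate 2 after TMM scaling lay between -0.13 and 0.09 for the 83 genes averaging 50 counts or more, and none was 2-fold apart, where 1.22% of the 14035 named genes tested were. The lowest mean count among the 83 was 1123. Of 7416 other genes averaging 1000 counts or more, only 4 were at least 2-fold apart, so this absence does not set the 83 genes apart. None of the 83 differed by as much as 10%, against 17.3% of 7416 other genes averaging 1000 counts or more. Beyond that minimum the 7416 were not matched to the 83 in count. Among proteasome genes 0 of 20 differed by 10%, and among mitochondrial ribosomal protein genes 4 of 77 (5.19%). So this agreement was not particular to the 83 genes either. The median log2 ratio was -0.04 for the 83 genes and -0.01 for all genes tested, and 72 of the 83 were below 0, that is, higher in replicate 2. The same direction was found in 7294 of the 14035 genes tested, in 4309 of the 7416 other genes averaging 1000 counts or more and in 18 of 20 proteasome genes. Scaling by the spike-in counts, which held 3.46% of counts in replicate 1 and 3.94% in replicate 2, moved the median of all genes to 0.21 and that of the ribosomal protein genes to 0.18, and so turned their direction. Relative to all genes the difference was -0.03, which a common scaling factor leaves as it is by arithmetic. The 4 red cell markers together were higher in replicate 1, but Alas2 was higher in replicate 2 (38.7 TPM in replicate 1 and 43.0 TPM in replicate 2). The 9 muscle markers, of which only Actc1 reached 1 TPM in both libraries, summed to 14.97 TPM in replicate 1 and 27.5 TPM in replicate 2. They did not share a direction. Myod1 (1.68 and 0.50 TPM in replicates 1 and 2), Myog (2.65 and 0.52 TPM) and Nppa (0.17 and 0.09 TPM) were higher in replicate 1. The others were higher in replicate 2, with Actc1 at 8.10 and 16.8 TPM. The part of red cells or muscle in this small difference was not tested.

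The largest ratios in each direction were small. Higher in replicate 1 were Rps19bp1 (60.4 TPM in replicate 1 and 55.8 TPM in replicate 2, log2 ratio 0.09), Rpl37 (0.07), Rps27 (0.06), Rpl28 (0.04) and Rps27rt (0.04). Higher in replicate 2 were Rpl5 (-0.13), Rps7 (448 TPM in replicate 1 and 479 TPM in replicate 2, -0.13), Rps12 (-0.12), Rps2 (-0.12) and Rpl36al (-0.12). Of these 10, Rps19bp1, Rps27rt and Rpl36al are not canonical genes. Among the canonical ones Rpl5, Rpl28, Rpl37 and Rps12 had at least 25% of their counts in copies, and Rps27, Rps7 and Rps2 did not. Of all 77 canonical genes, 19 did. The part of the copies in these ratios was not tested.

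**Figure D4:**
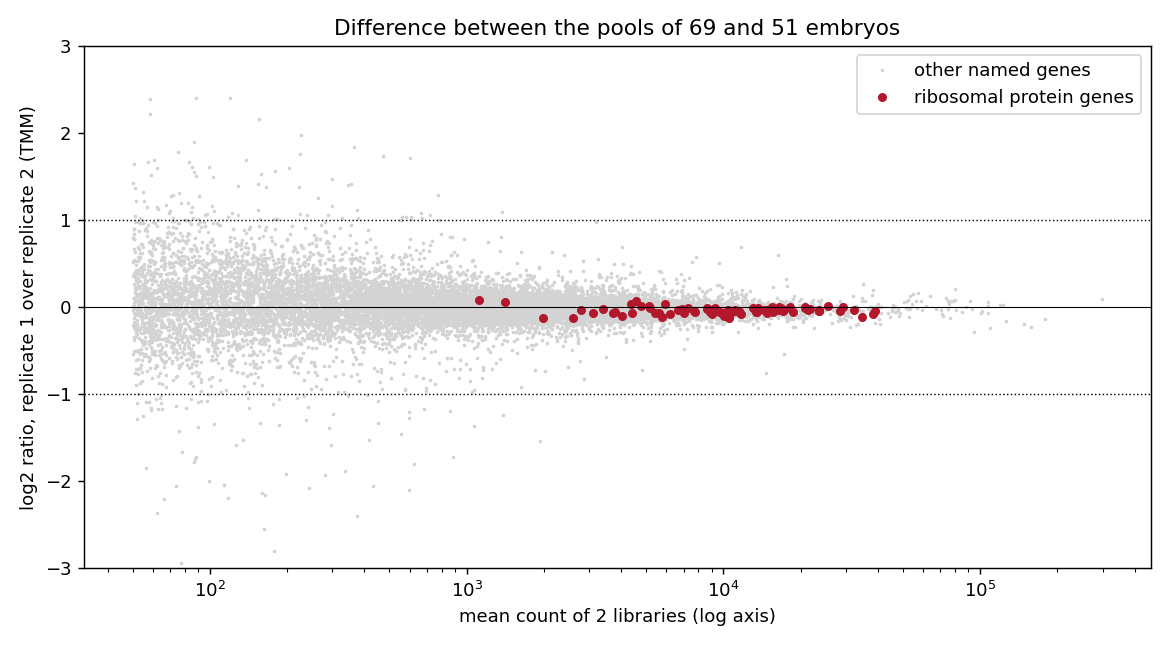
Log2 ratio of replicate 1 over replicate 2 after TMM scaling against the mean count (log axis) for genes averaging 50 counts or more. Genes taken by the name rule are red and other genes grey. Dotted lines mark a 2-fold difference, and 7 other genes lie outside the axis. All 83 genes in red lie between -0.13 and 0.09, and the highest is Rps19bp1, which is no ribosomal protein.

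Transcript composition was stable between the pools. Of the 77 canonical genes, 20 had a single annotated transcript. Among all members, 60 were detected and had at least 2 transcripts. Both libraries had the same leading transcript in 60 of 60, against 94% of 7552 protein coding genes averaging 5 TPM or more. Those genes were not matched to the members in level. Their leading transcript had a median share of 68.9%, against 84.6% in the 60 members. Among the 57 canonical genes with a choice, the leading transcript made up a median of 82.6% of the gene's TPM. It exceeded 90% in 23 genes and was under 50% in 7. Rps24, a gene known for small alternative exons at its end, had 2 transcripts listed. Of these, Rps24-201 made up 98.0% in replicate 1 and 97.8% in replicate 2. Forms not listed as transcripts could not be seen.

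For 6 of the 57 genes the leading transcript was not annotated as protein coding in GENCODE M21. The protein coding class thus led in 51 genes (89.5%), close to the 91.2% of the 7552 genes. Retained intron transcripts led in Rps20 (Rps20-201, 92.1 ± 0.453%) and in Rpl5 (Rpl5-205, 46.7 ± 0.424%). In Rpl5 the coding transcript Rpl5-201 made up 40.5 ± 0.141%. Rpl12 was led by a transcript annotated for nonsense-mediated decay, Rpl12-201, at 61.0 ± 0.141%. Rpl35-203 (89.2 ± 0.863%) and Rpl23-204 (58.3 ± 2.03%) are listed as processed transcripts, and the leading transcript of Rpl13a, at 31.6 ± 1.08%, has no entry in M21. Rpl5, Rpl12 and Rpl35 also had 88.4%, 59.3% and 41.2% of their counts in copies, which match spliced coding transcripts. Rps20 and Rpl23 had 0% in copies and Rpl13a 0.33%. The part of the copies in which transcript led was not tested.

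**Figure D5:**
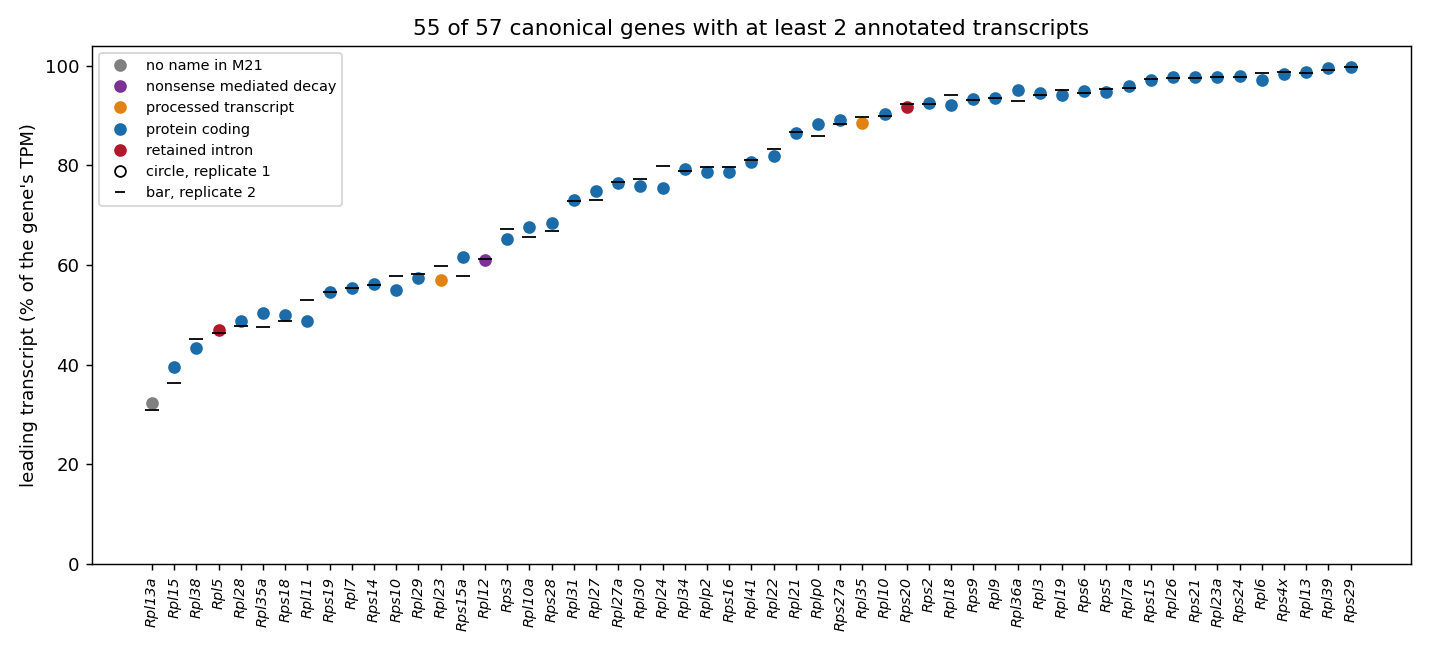
Share of the leading transcript in the gene's TPM, in percent, for 55 of the 57 canonical genes with at least 2 annotated transcripts, ordered by share. Circles (replicate 1) are coloured by the annotated class of the transcript and bars are replicate 2. Shares run from 31.6% in Rpl13a to nearly all of Rps29, and bars lie close to their circles.

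The canonical genes shared structural features that the name rule did not use. Their median effective length was 592 bases, against 2434 bases for 12411 other detected protein coding genes, and their median span on the genome was 3289 bases, against 24847. They lay on 19 chromosomes, with 14 on chromosome 7, and the share of all genes on that chromosome was not computed. Small nucleolar RNA genes, most of which guide the modification of ribosomal RNA, lay within 30 of the 77 canonical genes (39.0%) on the same strand, against 201 of the 12411 other genes (1.62%). Rpl4 held 5 of them and Rpl13a held 4. Across the 77 genes, level and effective length had a Spearman correlation of -0.26, and -0.12 with copies added. This is a description across genes measured in the same 2 libraries, and lengths enter the TPM itself.

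Promoter sequences from RefSeq (GRCm38.p6, 250 bases before to 50 after each annotated start) were found for 57 of the 77 canonical genes. A pyrimidine tract at the start, taken as a C at the annotated start base followed by at least 4 C or T on the coding strand, was held by 13 of the 57 (22.8%), against 3.01% of the 27025 genes in the table. It stood in 7 of 34 large subunit genes (20.6%) and in 6 of 23 small subunit genes (26.1%). Where the tract could begin up to 5 bases on either side, the share was 47.4%, against 21.2% of all genes. The windows of the 5 most abundant genes with the tract, 15 bases before to 15 from the start, are shown because they carry this feature, with the tract in capitals. They lie at chr17:33955651-33955680 (minus strand, Rps18), chr7:141447636-141447665 (plus, Rplp2), chr11:114668565-114668594 (plus, Rpl38), chr16:33056467-33056496 (plus, Rpl35a) and chr2:39005117-39005146 (minus, Rpl35).
Rps18: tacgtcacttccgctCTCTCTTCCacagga
Rplp2: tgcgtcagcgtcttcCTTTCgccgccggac
Rpl38: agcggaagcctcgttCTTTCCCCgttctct
Rpl35a: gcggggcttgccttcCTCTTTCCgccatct
Rpl35: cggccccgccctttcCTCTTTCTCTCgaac
The 13 genes with the tract at the annotated start base had a median level of 698 TPM (342 to 1308). For the 44 without it there the median was 712 TPM (80.6 to 2965). With a start up to 5 bases away, 27 of the 57 had a tract, so the 44 include genes with a tract nearby. Levels were not compared under that setting. Rpl41 and Rps19, the highest of each subunit, had no such tract at the annotated start. The motif CCGGAAG, the core bound by ETS factors, was present on either strand in 24 of the 57 (42.1%), against 9.93% of all genes. AAGATGG, the core bound by YY1, was present on either strand in 9 (15.8%), against 7.28%. TATAAA on the coding strand within the 50 bases before the start was found in 0 of the 57, against 3.15%. CCGGAAG and AAGATGG can share the letters AAG, a gene counted where any of its annotated starts held a motif, and a match describes the sequence only.

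Compared with other large complexes, the canonical ribosomal protein genes were higher. Their median was 795 TPM, against 381 TPM for 20 constitutive subunits of the proteasome core and its ATPase ring and 102 TPM for 77 mitochondrial ribosomal protein genes. Of the 77 canonical genes, 68 were above Mrps21, the highest mitochondrial ribosomal protein gene at 323 ± 1.28 TPM, and 23 were above Psmb6, the highest proteasome gene at 947 ± 1.32 TPM. Their spread, an SD of 0.92 on the log2 scale, was like that of the mitochondrial set (0.84) and wider than that of the proteasome set (0.57), and with copies added it was 0.63. Genes of the translation machinery listed with them had a median of 446 TPM over 12 genes. Elongation factor Eef1a1 stood at 3230 ± 78.6 TPM, above every canonical gene, Npm1 at 1332 ± 33.7 TPM and Tpt1 at 721 ± 11.8 TPM. The lowest was the initiation factor subunit Eif3f at 63.6 ± 0.205 TPM. The differences between these sets were not tested, since genes are not replicates.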

How the data were processed

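Expected counts and TPM per gene, and the percent of each transcript within its gene, were estimated and deposited by the authors for each library, beside posterior mean values. Per the file headers and notes, reads were placed on mm10 and quantified against GENCODE M4. What aligner, quantifier and strand setting were used is not given in the sources used here. Gene counts came to 40059176 in replicate 1 and 39531700 in replicate 2. Symbols, classes and coordinates came from GENCODE M21 by gene identifier, and promoters from RefSeq. Expected counts were rounded and scaled with TMM (edgeR 4.0.16), with a prior count of 2 per library. Copies were found with blastn 2.17.0 among M21 transcripts, each assigned to the member it matched best, leaving out 2 genes that overlap that member. The log ratio step was tested on simulated data. Alternatives were DESeq2 1.42.0 size factors, other scalings, posterior mean values, pseudocounts, filters and leaving out either library. Members and lists were chosen with earlier results of these data known. Full values are given for the 10 highest and 5 lowest canonical genes of each subunit, the 5 largest ratios in each direction, paralog pairs and role lists. Results of 5 genes that these rules or lists took are not reported here, and counts and medians include them. Nothing in the labels says more of how separate the pools were, so the spread between them may be partly technical.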

Additional observations from a re-analysis of the deposited data

How the results depend on the processing

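The canonical median of 795 TPM was 778 TPM from posterior mean TPM, 974 TPM when rescaled to protein coding genes outside the mitochondrial genome, 736 TPM over all 86 genes, 758 TPM over those averaging 1 TPM or more and 950 TPM with copies added, the last chosen after seeing the data. It ran from 792 to 798 TPM with 1 library left out. The large over small ratio of medians was 0.837 over all 86 genes, 0.924 over those averaging 1 TPM or more, 0.973 with copies, and 0.956 to 0.959 with 1 library left out. The SD of log2 levels was 0.92 from posterior means, 2.39 over all 86 genes, 1.00 over those averaging 1 TPM or more, 0.63 with copies, and 0.92 to 0.93 with 1 library left out. The share of counts, 2.60% on average, was 2.72% of protein coding counts, 2.78% with -ps pseudogenes and 3.03% with copies, and 2.58 to 2.62% with 1 library left out. The median ratio between libraries was -0.04 and turned to 0.18 under spike-in scaling, as did all genes. Rpl22 over Rpl22l1 lost its call with 1 library (0.16 to 0.17) and was 0.62 in place of 0.17 by counts not per length. By counts not per length, Rpl7 over Rpl7l1 was 0.89 in place of 2.77, Rps27 over Rps27l -2.32 in place of -0.96 and Rps27 over Rps27rt -2.07 in place of -1.28. The pyrimidine tract was held by 47.4% when its start could shift and by 15.8% when at least 7 C or T followed. Of 105 alternatives over 17 results, 86 kept direction and call or stayed within the replicate spread, and 16 moved. Agreement of leading transcripts needs both libraries, so neither could be left out. Depth limits Rpl3l, Rpl10l and Rpl39l, at 0 to 3 counts, and the size of their log2 differences moved with the pseudocount. No paired analysis was possible because there was 1 group.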
